A study of Homo sapiens with 6 samples.

Results

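Aldehyde dehydrogenases (ALDHs) were examined in A549 cells with and without the MIR21 gene. The set comprised 10 of the 58174 genes in the expression table, found by their exact symbols: ALDH1A1, ALDH1A3, ALDH1B1, ALDH1L2, ALDH2, ALDH3A1, ALDH3A2, ALDH3B1, ALDH6A1 and ALDH7A1. A549 is an established human line of lung adenocarcinoma (LUAD) cells. PolyA RNA was sequenced in 3 libraries of parental cells (Ctrl) and 3 libraries of MIR21-KO cells, in which the gene of microRNA 21 had been cut out by Cas9 with paired guide RNAs. Both groups were grown in DMEM with 10% FBS and harvested 48 hours after seeding. MIR21-KO cells had been grown from sorted single cells, whereas Ctrl cells had not been cloned. How many clones the MIR21-KO libraries represent is not given in the sources used here, so differences between clones and the deletion itself cannot be told apart. The study describes its RNA-seq samples as independent, but the labels do not say whether replicates were separate cultures or clones, so the test values measure the spread between these libraries.

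ALDHs oxidize reactive aldehydes to carboxylic acids with NAD+ or NADP+ as cofactor. The family clears aldehydes from ethanol, lipid peroxidation, sphingolipids and amino acids, and ALDH1A enzymes make retinoic acid, the ligand of nuclear retinoic acid receptors. ALDH activity, largely that of ALDH1A1, ALDH1A3 and ALDH3A1, is used as a marker of stem-like and drug-tolerant cells in lung cancer.

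The sequence of the deleted microRNA and its match among the ALDH transcripts are shown because seed matches are what a microRNA pairs with. MiR-21-5p is encoded at chr17:59841273-59841294 (GRCh38), and its mature sequence is given with the seed, bases 2 to 8, in capitals. The longest annotated 3' UTR among protein-coding transcripts (GENCODE 29) held the reverse complement of the seed, ATAAGCT, in 1 of the 10 genes, ALDH1A1. The match lay at base 110 of a 3' UTR of 546 bases, at chr9:72901092-72901098 on the minus strand, and the base after it is an A, which makes it an 8mer. The site is shown with flanking bases and with the match in capitals. Among 11644 tested protein-coding genes with a 3' UTR, 9.88% held the same 7 bases. A match is a description of sequence, and binding was not measured.
miR-21-5p: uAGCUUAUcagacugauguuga
ALDH1A1 3' UTR site: tttttttaaacATAAGCTaaatcatatta

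Promoter windows of 300 bases, from 250 before to 50 after the start site (RefSeq, GRCh38.p14), were matched for 7 of the 10 genes, with 9 windows in all. ALDH2, ALDH3A1 and ALDH1L2 had no window. Those of ALDH1A1, the most abundant member, and of ALDH1A3 and ALDH1B1, a pair of members that decreased, are shown because they differ widely in base composition. Capitals mark the CCAAT box, which reads ATTGG where it lies on the opposite strand. The ALDH1A1 window (chr9:72953004-72953303, minus strand) had a GC content of 40.3% and 7 CpG dinucleotides. The ALDH1A3 window (chr15:100879581-100879880, plus strand) had 81.7% and 46, and the ALDH1B1 window (chr9:38392452-38392751, plus strand) 71.3% and 27. The medians of 35116 such windows were 58.7% and 14.
ALDH1A1 promoter: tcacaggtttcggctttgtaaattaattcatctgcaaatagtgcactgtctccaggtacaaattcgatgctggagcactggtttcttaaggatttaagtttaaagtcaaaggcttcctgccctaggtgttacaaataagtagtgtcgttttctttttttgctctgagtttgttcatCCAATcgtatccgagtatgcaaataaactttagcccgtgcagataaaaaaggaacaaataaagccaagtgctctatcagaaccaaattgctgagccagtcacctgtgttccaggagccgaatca
ALDH1A3 promoter: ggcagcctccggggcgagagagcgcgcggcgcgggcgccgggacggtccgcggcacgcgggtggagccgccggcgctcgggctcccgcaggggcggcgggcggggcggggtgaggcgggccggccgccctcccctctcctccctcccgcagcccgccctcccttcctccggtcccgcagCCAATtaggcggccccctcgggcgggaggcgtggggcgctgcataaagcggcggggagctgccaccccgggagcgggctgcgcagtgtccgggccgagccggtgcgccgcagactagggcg
ALDH1B1 promoter: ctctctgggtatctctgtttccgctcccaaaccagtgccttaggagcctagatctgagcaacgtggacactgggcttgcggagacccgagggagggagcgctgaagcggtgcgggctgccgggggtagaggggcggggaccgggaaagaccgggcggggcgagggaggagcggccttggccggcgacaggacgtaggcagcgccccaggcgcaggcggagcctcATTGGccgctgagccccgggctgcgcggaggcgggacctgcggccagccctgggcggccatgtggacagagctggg

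Both strands of these windows were searched for 6 motifs. The promoters of ALDH2, ALDH3A1 and ALDH1L2 were thus not searched. CCAAT occurred in 6 of the 9 windows, each of another gene, and in 34.6% of all windows. The GC box GGGCGG also occurred in 6 of the 9 windows, none of them that of ALDH1A1, and in 45.0% of all windows. The C/EBP motif TTGCNNAA was found in 2 of the 9 windows, for ALDH3A2 and ALDH7A1, and in 10.5% of all windows. The antioxidant response element TGACNNNGC, the ATF4 element TGATGNAA and the AP-1 motif TGANTCA were in none of the 9 windows, and in 13.3%, 3.62% and 7.71% of all windows. TGACNNNGC and TGANTCA can overlap.

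Library totals were 10631667 to 14345209 reads, recovered from the deposited FPKM values (reads scaled to library size and gene length). MIR21 itself was listed at 0 in all 6 libraries, so its level, in libraries of longer polyA RNA, does not check the labels. Pearson's r of log2 values over tested genes was 0.950 to 0.959 within Ctrl, 0.933 to 0.957 within MIR21-KO and 0.896 to 0.912 between the groups. Genes averaging 0.5 FPKM or more entered a limma test on log2(FPKM + 0.1), and an FDR under 0.01 over all 16006 of them is called a change below. By this rule 16.0% of all tested genes changed, 8.38% decreased and 7.66% increased. Of A549 epithelial markers, KRT8, KRT18 and the like, 8 of 10 were tested and 2 decreased, CDH1 by 1.48 and ELF3 by 0.96 on the log2 scale, and the sum of the 10 was 1701 to 1825 FPKM in Ctrl and 1227 to 1758 in MIR21-KO. The lung alveolar markers NKX2-1, SFTPA1 and SCGB1A1 were listed at 0 in every library, and their list of 10 summed to 5.38 to 6.41 FPKM in Ctrl and 8.02 to 8.67 in MIR21-KO. Markers of fibroblasts summed to 16.7 to 18.6 and 27.4 to 30.9 FPKM, with THY1 and ACTA2 increased by 1.60 and 0.59 log2 units and COL1A2 listed at 0. Blood and endothelial markers summed to 3.32 to 3.88 and 3.37 to 5.40 FPKM, with CD3E and HBB listed at 0, and their 1 tested marker did not pass. The part of these markers in the ALDH differences was not tested.

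All 10 ALDHs passed the expression filter, and 3 of them changed: ALDH1A3, ALDH1B1 and ALDH3A1 decreased in MIR21-KO. None increased by this limma rule. By the same rule 16.0% of all 16006 tested genes changed, 8.38% lower and 7.66% higher. All 10 members are protein-coding, and of 11719 protein-coding genes tested 2305 (19.7%) changed, 1239 lower and 1066 higher. An unadjusted p under 0.05 in limma was reached by 9 of the 10 members and by 6910 of all 16006 tested genes. Voom, another fit on the recovered reads, called 2 members higher (ALDH1A1 and ALDH6A1) and 4 lower. Over all 16006 genes voom called 1678 higher and 1818 lower. At an FDR under 0.05, which 32.0% of all tested genes passed (16.8% lower and 15.2% higher), 7 of the 10 passed, 4 lower and 3 higher, adding ALDH3A2 below and ALDH1A1, ALDH3B1 and ALDH6A1 above Ctrl. In 9 of the 10 the 3 values of each group were fully separate, which held for 48.1% of all tested genes. The median log2 fold change of the 10 was 0.30, and that of all tested genes was -0.02. The members that changed all decreased, although 6 of the 10 had positive log2 fold changes, as had 7763 of all 16006 tested genes. No test of the list as a whole was made. In bulk RNA, fewer cells expressing a gene and less RNA per cell cannot be told apart.

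**Figure D1:**
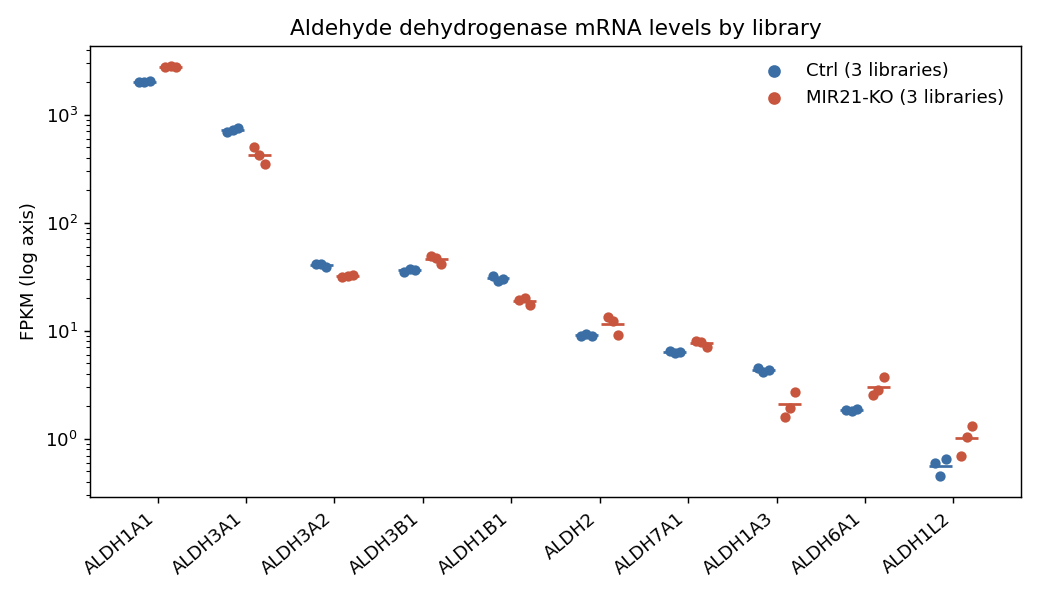
FPKM (log axis) of the 10 ALDH genes in each library, ordered by the Ctrl mean. Points are single libraries, 3 of Ctrl in blue and 3 of MIR21-KO in red, and short lines are group means. ALDH1A1 lies at 1992 to 2033 FPKM in Ctrl and 2758 to 2789.95 in MIR21-KO, and ALDH2 alone has overlapping groups.

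ALDH1A1 (ENSG00000165092, chr9:72900662-73080442, minus strand) is the cytosolic retinaldehyde dehydrogenase that makes retinoic acid. Its level was 2016, 1992 and 2033 FPKM in the Ctrl libraries and 2774, 2789.95 and 2758 FPKM in the MIR21-KO libraries. Every MIR21-KO library exceeded every Ctrl library by at least 725 FPKM, while the SD within groups was 20.4 and 16.0 FPKM. The MIR21-KO mean was 1.38-fold the Ctrl mean, with a log2 fold change of 0.46 ± 0.096 (SE, n = 3 per group). Its FDR by limma was 0.0120, just outside the threshold, since the error limma assigned it draws on the spread of other genes. Under 8 of 18 alternative settings it passed. ALDH1A1 ranked at 5 among all genes by mean FPKM in both groups.

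ALDH1A3 (ENSG00000184254, chr15:100877714-100916626, plus strand), another retinaldehyde dehydrogenase, decreased. It was measured at 4.56, 4.16 and 4.34 FPKM in Ctrl and at 1.59, 1.94 and 2.71 FPKM in MIR21-KO. The groups did not overlap, and MIR21-KO replicate 3 lay nearest to Ctrl. The Ctrl mean was 2.09-fold that of MIR21-KO, with a log2 fold change of -1.06 ± 0.193 (SE, n = 3 per group, limma FDR 0.00755). This was the largest change among the 10 in size, on 125 to 343 reads per library. ALDH1A3 was called under 8 of 17 alternatives, among them 1 of the 6 fits that leave out a library. An antisense gene that shares 1585 exon bases with ALDH1A3, RP11-66B24.4, had 78 to 163 reads and did not pass (log2 fold change 0.31, limma FDR 0.230). The libraries were made strand-specific, but the strand setting of the counting is not given in the sources used here.

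Genes that handle or respond to retinoids were followed in a list of 26, of which 20 were tested. Of these, 6 increased and none decreased, against 7.66% and 8.38% of all tested genes, and the median log2 fold change of the list was 0.19. At an unadjusted p under 0.05, 9 were higher and 5 lower by limma, and voom called 6 higher and 1 lower. Such a p was found for 6910 of all 16006 tested genes, of which voom called 1678 higher and 1818 lower. RARB, a retinoic acid receptor, was at 1.95, 2.01 and 2.31 FPKM in Ctrl and 10.3, 12.4 and 13.97 FPKM in MIR21-KO (log2 fold change 2.49 ± 0.136, limma FDR 0.000104). TGM2, a transglutaminase, was at 109, 101 and 104 FPKM in Ctrl and 511, 537 and 561 FPKM in MIR21-KO (2.36 ± 0.0831, limma FDR 2.5e-05). CYP26B1, which degrades retinoic acid, was at 1.13, 1.24 and 1.84 FPKM in Ctrl and 6.72, 6.37 and 6.59 FPKM in MIR21-KO (2.18 ± 0.183, limma FDR 0.000429). In each of these 3 genes the lowest MIR21-KO library lay above the highest Ctrl library. They were picked as the largest called rises of the list, and groups were separate in 48.1% of all tested genes. The other increased genes, named after their values were seen, were the retinol receptor STRA6 (1.52), RARRES1 (1.49) and the retinaldehyde reductase DHRS3 (1.26 log2 units). All 6 were called under every alternative in which they were tested. CYP26A1 and CRABP2, also named after their values were seen, had log2 fold changes of -1.36 and -1.12 without passing (limma FDR 0.016 and 0.018). In both, every MIR21-KO library lay below every Ctrl library, on 11 to 56 and 14 to 47 reads per library. RXRG was listed at 0 in every library.

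ALDH3A1 (ENSG00000108602, chr17:19737984-19748943, minus strand) oxidizes aromatic and medium-chain aldehydes and ranked behind ALDH1A1 as the other abundant member. It was measured at 696, 721 and 749 FPKM in Ctrl and at 499, 419 and 346 FPKM in MIR21-KO. All MIR21-KO libraries lay below all Ctrl libraries, by at least 197 FPKM. The Ctrl mean was 1.71-fold that of MIR21-KO, with a log2 fold change of -0.79 ± 0.144 (SE, n = 3 per group, limma FDR 0.00758). It was called under 11 of 18 alternatives, among them 2 of the 6 fits that leave out a library. Its rank among all genes moved from 29 in Ctrl to 82 in MIR21-KO. The antisense gene RP11-311F12.2 shares 98 exon bases with ALDH3A1 and had 554 to 1241 reads, against 17579 to 40153 for ALDH3A1. It also decreased, from 198, 247 and 203 FPKM in Ctrl to 132, 106 and 95.8 FPKM in MIR21-KO (log2 fold change -0.96 ± 0.148, limma FDR 0.00408). Whether reads of the pair were kept apart by strand is not given in the sources used here.

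The abundance of ALDH3A1 in A549 is known to accompany the constitutive activity of NRF2, the transcription factor of the antioxidant response, in this line. Of 30 genes of the NRF2 pathway, all tested, 3 increased and 4 decreased, against 7.66% and 8.38% of all tested genes, with a median of -0.14. Log2 fold changes were negative for 20 of the 30, and for 8243 of all 16006 tested genes. At an unadjusted p under 0.05, 4 were higher and 10 lower by limma, and voom called 4 higher and 7 lower. Among all 16006 tested genes 6910 had such a p, and voom called 1678 higher and 1818 lower. GPX2, a glutathione peroxidase, was at 78.6, 78.3 and 82.6 FPKM in Ctrl and at 0.930, 0.436 and 0.720 FPKM in MIR21-KO, a log2 fold change of -6.70 ± 0.225 (limma FDR 2.46e-05). AKR1C2, an aldo-keto reductase that may share reads with its close paralog AKR1C1, decreased by 1.35 and GCLC, the catalytic subunit of glutathione synthesis, by 1.06 on the log2 scale. CYP4F11, a fatty acid hydroxylase, increased by 2.51, the epoxide hydrolase EPHX1 by 0.96 and the efflux pump ABCC3 by 0.39 log2 units. CYP4F11 passed the expression filter only through MIR21-KO (8 to 18 reads per Ctrl library), and its log2 fold change was 1.24 to 2.92 over the alternatives. Of the 7 called genes, 3 were called under every alternative. Of 26 alcohol dehydrogenases and other aldehyde enzymes, 17 were tested. Among them 1 increased and 1 decreased, against 7.66% and 8.38% of all tested genes. AKR1B15, a close paralog of AKR1B10, increased by 0.81 log2 units and AKR1C2 decreased, and ADH1A, ADH1B, ADH4 and ADH7 were listed at 0 in every library.

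The mitochondrial enzymes of acetaldehyde, ALDH2 and ALDH1B1, had log2 fold changes of opposite sign, and only ALDH1B1 passed the threshold. ALDH1B1 (ENSG00000137124, chr9:38392664-38398661, plus strand) was at 32.4, 29.1 and 30.0 FPKM in Ctrl and at 19.2, 19.9 and 17.5 FPKM in MIR21-KO. The groups were 9.15 FPKM apart at their nearest values, well beyond the SDs of 1.70 and 1.25 FPKM. It decreased by 38.2%, with a log2 fold change of -0.69 ± 0.082 (SE, n = 3 per group, limma FDR 0.00149), the smallest FDR of the 10. It was also the most stable call of the family, made under 15 of 18 alternatives.

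ALDH2 (ENSG00000111275, chr12:111766887-111817529, plus strand), the main enzyme of acetaldehyde clearance, was at 8.96, 9.24 and 8.91 FPKM in Ctrl and at 13.5, 12.2 and 9.11 FPKM in MIR21-KO. MIR21-KO replicate 3 fell inside the Ctrl range, whereas the other MIR21-KO libraries lay above it. The log2 fold change was 0.34 ± 0.146 (SE, n = 3 per group, limma FDR 0.124), with a 95% interval of -0.01 to 0.69. Without MIR21-KO replicate 3 it was 0.50 with a limma FDR of 0.00407. The ratio of ALDH2 to ALDH1B1 was 0.277, 0.318 and 0.297 in Ctrl and 0.704, 0.614 and 0.522 in MIR21-KO, without overlap.

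**Figure D2:**
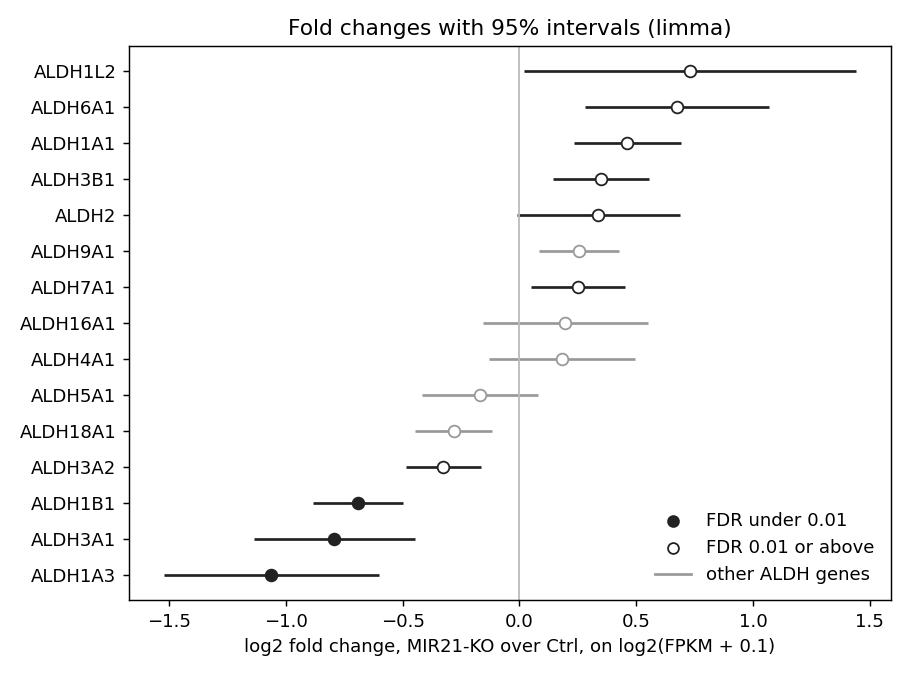
Log2 fold changes (MIR21-KO over Ctrl) with 95% intervals from limma for the 10 ALDH genes (black) and the 5 other ALDH genes that were tested (grey). Filled points passed an FDR of 0.01: ALDH1A3 at -1.06, ALDH3A1 at -0.79 and ALDH1B1 at -0.69, and no gene with a positive fold change did.

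Both enzymes of fatty and lipid-derived aldehydes were close in level and differed in sign. ALDH3A2 (ENSG00000072210, chr17:19648136-19677598, plus strand), the fatty aldehyde dehydrogenase that also acts on sphingosine-derived hexadecenal, was at 41.4, 41.2 and 38.7 FPKM in Ctrl and at 31.5, 32.2 and 33.1 FPKM in MIR21-KO. The groups did not overlap, and the log2 fold change was -0.32 ± 0.067 (SE, n = 3 per group, limma FDR 0.0115). ALDH3A2 lies 60385 bases from ALDH3A1 on chromosome 17. ALDH3B1 (ENSG00000006534, chr11:68008578-68029282, plus strand), which oxidizes medium- and long-chain aldehydes, was at 34.7, 37.2 and 36.6 FPKM in Ctrl and at 49.7, 47.4 and 41.8 FPKM in MIR21-KO. Every MIR21-KO library lay above Ctrl, by 4.57 FPKM at the nearest values, with a log2 fold change of 0.35 ± 0.086 (limma FDR 0.0222). ALDH3A2 was thus above ALDH3B1 in every Ctrl library and below it in every MIR21-KO library.

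Of 17 genes of fatty aldehyde and sphingosine phosphate metabolism, 15 were tested. Of the 15, 2 increased and 1 decreased (median -0.05), against 7.66% and 8.38% of all tested genes. SPHK1, the kinase that makes sphingosine-1-phosphate, was at 1.92, 2.27 and 2.07 FPKM in Ctrl and 7.35, 7.14 and 5.80 FPKM in MIR21-KO (log2 fold change 1.64 ± 0.130, limma FDR 0.000339). SGPL1, the lyase that cleaves it and yields the aldehyde used by ALDH3A2, increased by 0.44 log2 units (limma FDR 0.00607). HACL1, a peroxisomal lyase of fatty acid alpha-oxidation, decreased by 0.50 on the log2 scale (limma FDR 0.00776). SPHK1 was called under every alternative in which it was tested, and SGPL1 and HACL1 under 10 and 9 of 18.

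The remaining 3 members were each set beside a metabolic pathway in which they act, and none of them passed the threshold. ALDH1L2 (ENSG00000136010, chr12:105019784-105084577, minus strand), the mitochondrial 10-formyltetrahydrofolate dehydrogenase, was the least abundant member, at 0.591, 0.448 and 0.645 FPKM in Ctrl and 0.690, 1.05 and 1.32 FPKM in MIR21-KO. The groups did not overlap, but their nearest values were 0.0456 FPKM apart and only 41 to 146 reads per library lay behind them. The log2 fold change was 0.73 ± 0.298 (SE, n = 3 per group, limma FDR 0.107), with a 95% interval of 0.02 to 1.44. The overlapping gene C12orf45 shares 145 exon bases with ALDH1L2 and had 340 to 419 reads, with a log2 fold change of -0.09 (limma FDR 0.696).

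The folate one-carbon pathway around ALDH1L2 held 8 called genes, all lower. Of its 25 genes 22 were tested, and the median log2 fold change was -0.37. Of the 22, 8 decreased and none increased, against 8.38% and 7.66% of all tested genes. At an unadjusted p under 0.05, 15 were lower and 2 higher by limma, and voom called 10 lower and 0 higher. Of all 16006 tested genes, 6910 had such a p, and voom called 1818 lower and 1678 higher. GLDC, the glycine decarboxylase, was at 3.09, 2.97 and 2.98 FPKM in Ctrl and 0.172, 0.219 and 0.0949 FPKM in MIR21-KO (-3.60 ± 0.254, limma FDR 0.000222). GLDC passed the expression filter only through Ctrl (11 to 24 reads per MIR21-KO library), and its log2 fold change was -4.27 to -1.79 over the alternatives. PSAT1, an enzyme of serine synthesis, was at 103, 98.0 and 93.6 FPKM in Ctrl and 38.2, 39.4 and 39.9 FPKM in MIR21-KO (-1.32 ± 0.0709, limma FDR 8.99e-05). SLC25A32, the mitochondrial folate carrier, fell by 0.98 on the log2 scale (limma FDR 0.000531). None of these 3 genes, picked as the largest called falls of the list, overlapped between the groups, which held for 48.1% of all tested genes. MTHFD2, DLD, PSPH and MTHFD1, named after their values were seen, decreased by 0.79, 0.52, 0.48 and 0.47 log2 units. Of the 8 genes, 4 were called under every alternative in which they were tested.

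**Figure D3:**
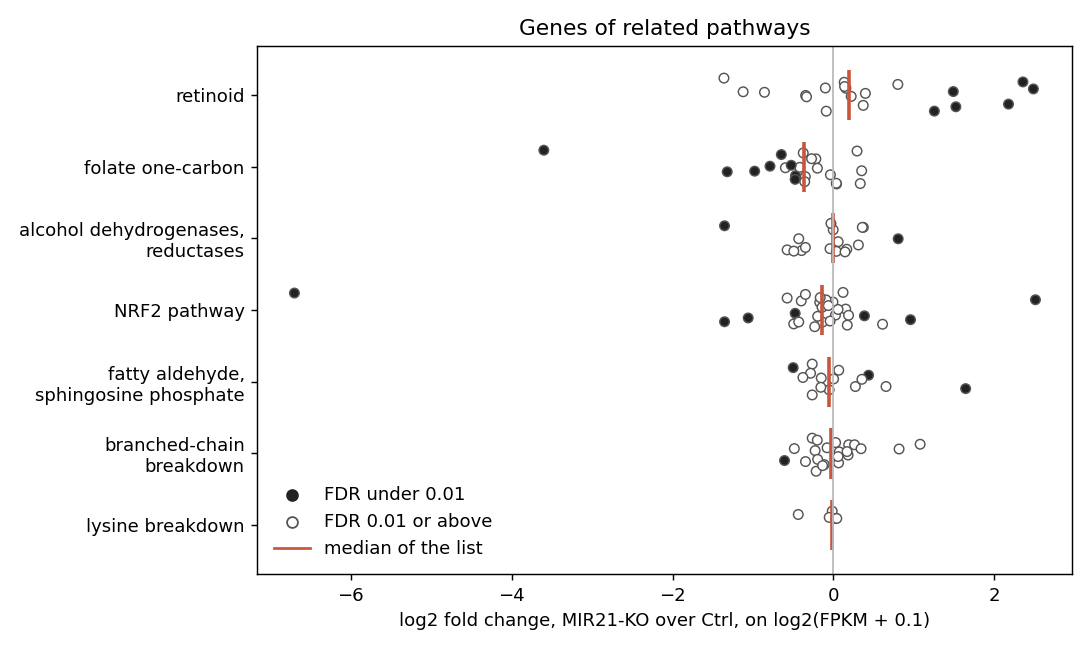
Log2 fold changes (MIR21-KO over Ctrl) of the tested genes of 7 pathway lists. Each point is a gene, filled where the FDR was under 0.01, and red lines are list medians. Retinoid genes have 6 filled points, all to the right of 0, and folate one-carbon genes have 8, all to the left.

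ALDH6A1 (ENSG00000119711, chr14:74056850-74084493, minus strand), the methylmalonate semialdehyde dehydrogenase of valine breakdown, was at 1.86, 1.81 and 1.87 FPKM in Ctrl and 2.54, 2.84 and 3.76 FPKM in MIR21-KO. All MIR21-KO libraries lay above Ctrl, and MIR21-KO replicate 3 was the highest. The log2 fold change was 0.67 ± 0.165 (SE, n = 3 per group, limma FDR 0.0220). BBOF1 shares 670 exon bases with ALDH6A1, had 64 to 146 reads against 130 to 326, and had a log2 fold change of 0.62 (limma FDR 0.0515). Of 24 genes of branched-chain amino acid breakdown 22 were tested, and 1 changed (median -0.03), against 16.0% of all tested genes. This gene, MCCC2, a subunit of the carboxylase of leucine breakdown, decreased by 0.61 on the log2 scale (limma FDR 0.00203).

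ALDH7A1 (ENSG00000164904, chr5:126531200-126595418, minus strand), the enzyme of lysine breakdown also called antiquitin, was at 6.54, 6.22 and 6.42 FPKM in Ctrl and 8.03, 7.83 and 7.08 FPKM in MIR21-KO. The groups were separate by 0.539 FPKM, and the log2 fold change was 0.25 ± 0.085 (SE, n = 3 per group, limma FDR 0.0614), the smallest of the 10 in size. It passed under none of the 18 alternatives. None of the 5 tested genes of a list of 8 for lysine breakdown changed by limma (median -0.01). An unadjusted p under 0.05 in limma was found for 1 of them, and voom called 0. Over all 16006 tested genes, 6910 had such a p and voom called 3496.

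Of the 9 other ALDH genes, 5 were tested, and none changed at an FDR under 0.01, which by limma was the result for ALDH9A1, ALDH18A1, ALDH4A1, ALDH5A1 and ALDH16A1. At an unadjusted p under 0.05 in limma, 2 of the 5 passed, and voom called none. For comparison, 6910 of all 16006 tested genes had such a p, and voom called 3496. ALDH9A1, of carnitine synthesis, was at 25.2, 22.9 and 22.5 FPKM in Ctrl and 27.7, 28.2 and 28.3 FPKM in MIR21-KO (log2 fold change 0.25, limma FDR 0.0353). ALDH18A1, of proline synthesis, was at 34.1, 30.9 and 31.9 FPKM in Ctrl and 26.1, 26.4 and 27.2 FPKM in MIR21-KO (-0.28, limma FDR 0.0225). These 2 genes did not overlap between groups. ALDH4A1 of proline breakdown, ALDH5A1 of GABA breakdown and ALDH16A1 overlapped, with log2 fold changes of 0.18, -0.17 and 0.20 and limma FDRs of 0.332, 0.258 and 0.352. ALDH1A2, the remaining retinaldehyde dehydrogenase of the ALDH1A group, had at most 1 read in any library, ALDH1L1 and ALDH8A1 at most 7 and ALDH3B2 at most 1.

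The order of levels (FPKM, per gene length) in Ctrl was ALDH1A1, ALDH3A1, ALDH3A2, ALDH3B1, ALDH1B1, ALDH2, ALDH7A1, ALDH1A3, ALDH6A1 and ALDH1L2. No neighbours in this order overlapped. In MIR21-KO, ALDH3B1 stood above ALDH3A2 and ALDH6A1 above ALDH1A3, and the latter pair overlapped.

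ALDH1A1 and ALDH3A1 made up nearly all of the family's RNA, and their shares of it did not overlap between the groups. The FPKM of the 10 genes summed to 2843, 2843 and 2910.05 in Ctrl and to 3399.8, 3335 and 3220.2 in MIR21-KO, so the total was higher in every MIR21-KO library. ALDH1A1 accounted for 70.9%, 70.1% and 69.9% of the sum in Ctrl and for 81.6%, 83.7% and 85.6% in MIR21-KO. The share of ALDH3A1 was 24.5%, 25.4% and 25.7% in Ctrl and 14.7%, 12.6% and 10.7% in MIR21-KO. The other 8 genes together summed to 128 to 131 FPKM in Ctrl and 116 to 127 in MIR21-KO. In reads, the 10 genes took 0.944% to 0.969% of each Ctrl library and 1.02% to 1.03% of each MIR21-KO library.

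The ratio of ALDH1A1 to ALDH3A1, which does not depend on library scaling, was 2.90, 2.76 and 2.71 in Ctrl and 5.56, 6.65 and 7.97 in MIR21-KO. The difference was 1.25 on the log2 scale, with SDs of 0.049 and 0.26. The ratio of ALDH1A1 to ALDH1A3 differed by 1.56, that of ALDH2 to ALDH1B1 by 1.04 and that of ALDH3B1 to ALDH3A2 by 0.68 log2 units. In an exact two-sided permutation test each of the 4 ratios gave p = 0.1 (adjusted p = 0.1), the smallest that 3 against 3 libraries allow. Each ratio sets a member with a positive log2 fold change over a member with a negative one in these same libraries. The test therefore adds no support of its own.

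**Figure D4:**
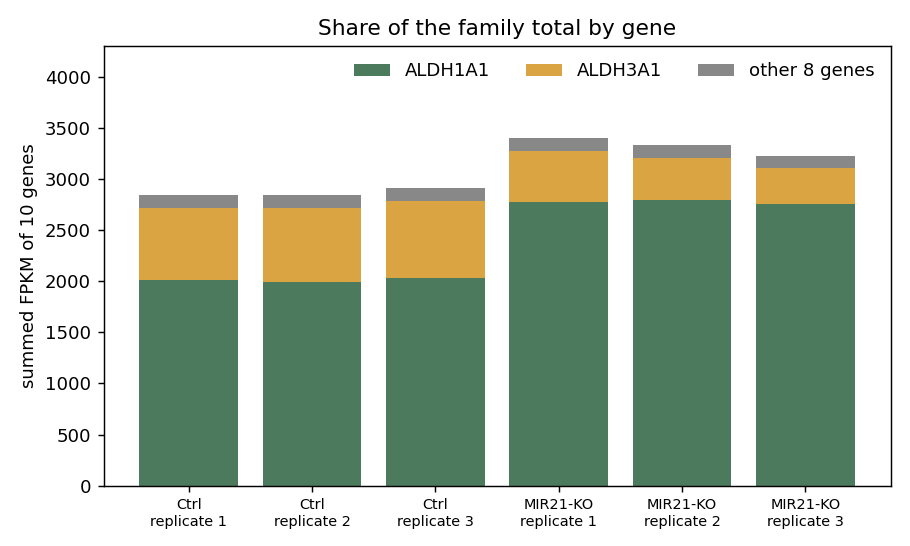
Summed FPKM of the 10 ALDH genes in each library, split into ALDH1A1, ALDH3A1 and the other 8 genes. ALDH3A1 takes 24.5% to 25.7% of the bar in Ctrl and 10.7% to 14.7% in MIR21-KO, while the whole bar is higher in MIR21-KO.

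Spread between libraries differed by group. The coefficient of variation (CV) was larger in MIR21-KO than in Ctrl for 8 of the 10 members, with medians of 13.5% and 3.67%. Among all tested genes it was larger in MIR21-KO for 69.0%, with medians of 15.0% and 8.95%. ALDH3A1 had CVs of 3.71% in Ctrl and 18.2% in MIR21-KO, where counting error alone would give 0.534% and 0.683%. For ALDH1A3, the CVs were 4.63% and 27.6%, with counting errors of 5.66% and 8.03%. The exceptions were ALDH1A1 (1.01% and 0.578%) and ALDH3A2 (3.67% and 2.46%). Of the 3 MIR21-KO libraries, replicate 3 lay nearest to the Ctrl mean for 6 of the 10 members and farthest from it for 4, and it was the nearest for 41.8% of all tested genes.

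The calls depended on which libraries entered the fit. The count of changed members was 0 without Ctrl replicate 1 and without Ctrl replicate 3, and 1 (ALDH1B1) without replicate 2 of either group. It was 3 when MIR21-KO replicate 1 was left out, but with ALDH1A1 called higher and ALDH1A3 no longer called (limma FDR 0.0107). It was 7 when replicate 3 of MIR21-KO was left out. The calls among all tested genes moved as well, from 2568 in the reported fit. Dropping a Ctrl library gave 918 (replicate 1), 933 (replicate 2) or 889 (replicate 3). Dropping a MIR21-KO library gave 2189, 784 or 3418, in the same order. Over these 6 fits the log2 fold change was -0.92 to -0.66 for ALDH3A1, -1.26 to -0.89 for ALDH1A3 and -0.73 to -0.64 for ALDH1B1, and that of ALDH1A1 was 0.45 to 0.47.

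**Figure D5:**
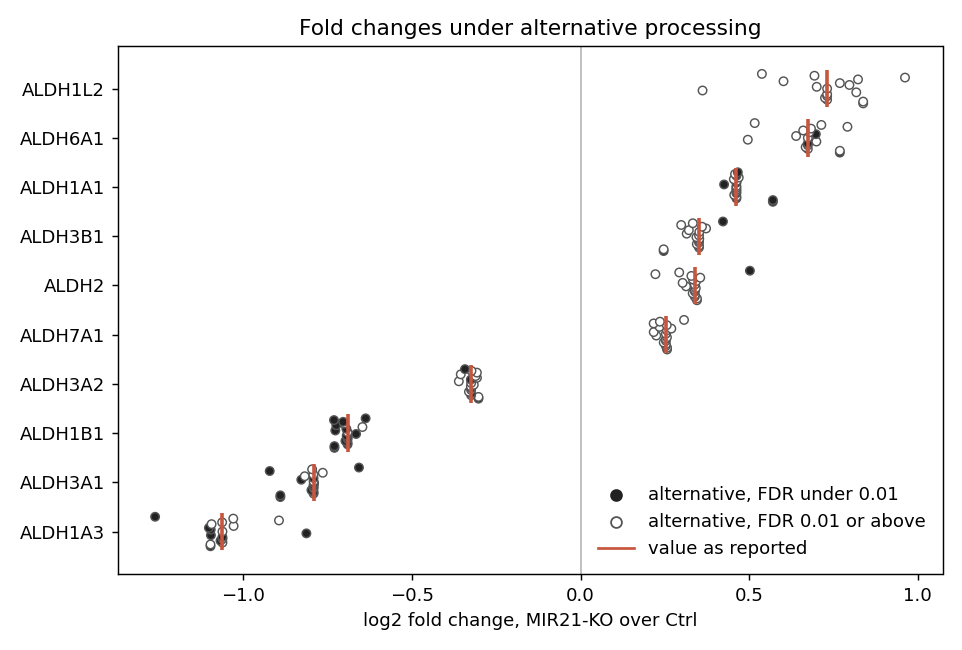
Log2 fold change (MIR21-KO over Ctrl) of each ALDH gene as reported (red line) and under up to 18 alternative settings (points, filled where the FDR was under 0.01). All points of a gene lie on the same side of 0.

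The expression pattern of ALDH1A3, the changed member with the largest fall, was compared with that of 6798 protein-coding genes averaging 5 FPKM or more. The nearest in log2 profile over the 6 libraries were TACC1, DEPDC1 and DNA2, with root mean square differences of 0.0240, 0.0374 and 0.0522 log2 units. TACC1 was at 9.01, 8.35 and 8.77 FPKM in Ctrl and 3.29, 3.81 and 5.38 FPKM in MIR21-KO. No changed member increased, so no such comparison was made for a rise.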

How the data were processed

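PolyA RNA-seq data of 3 Ctrl and 3 MIR21-KO libraries of A549 cells were analysed, grouped by sample title. Per the submitters' processing notes, the tools named were cutadapt 1.14, HISAT2 2.1.0, SAMtools 1.5, featureCounts 1.5.3 and edgeR 3.18.1, with genome build hg38. Per the study's methods, FDRs were calculated after TMM normalization. Other settings, strand handling and annotation are not given in the sources used here. The authors deposited FPKM values per gene and library, and 3 columns of their own comparison, a log2 fold change, a p-value and an FDR, which were not used. FPKM times gene length gave whole reads for 100% of values (within 0.01 reads), and the implied library sizes were 0.950 to 1.03 times the recovered totals, so these values carry a scaling by the authors.

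Genes averaging 0.5 FPKM or more were fitted by limma 3.58.1 (R 4.3.3) after log2(FPKM + 0.1) transformation (eBayes, trend and robust, two-sided, Benjamini-Hochberg over 16006 genes). Fold changes of low genes are understated on this scale. In data simulated for this comparison, 168 of 200 genes changed 2-fold were called, with 7 false calls among 15984 genes. The simulation gave both groups the same spread and changed only genes with more reads. In the real data the median CV of tested genes was 8.95% in Ctrl and 15.0% in MIR21-KO. The simulated rates therefore cannot be carried over to the real comparison. Members and lists were chosen with earlier results of these data known. Named genes were the 10 members, each other ALDH gene tested, up to 3 largest called rises and falls of each list, genes listed at 0 throughout, and the 3 nearest profiles of the member with the largest called rise or fall. Some genes of the lists are counted but not reported here by name. Counting error was taken as that of the recovered reads. A gene of 1 kb with 3 reads has 0.219 to 0.279 FPKM, the limit of detection by counting error alone. Positions and 3' UTRs came from GENCODE 29 (GRCh38). Alternatives comprised left-out libraries, pseudocounts, filters, scalings, voom on recovered reads, removal of GC and length trends and a replicate block.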

Additional observations from a re-analysis of the deposited data

How the results depend on the processing

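All 177 member log2 fold changes recomputed under the alternatives kept their direction, 139 kept their side of the threshold, 19 gained it and 19 lost it. The count of called members, 3 as reported, was 5 with protein-coding genes only, 6 with voom on recovered reads, 7 with GC and length trends removed and 7 at an FDR under 0.05. It was 2 without a filter on low values and 2 with limma without trend or robust fitting. In both, ALDH1A3 and ALDH3A1 were no longer called, ALDH1B1 was, and ALDH1A1 was called higher. Leaving out 1 library at a time gave 0 to 7 called members and 784 to 3418 called genes over all, against 2568 as reported. Fewer samples enter those fits. In every fit, including the reported fit, the spread of each gene is pooled over both groups. The count over all genes was 3253 of 11719 with protein-coding genes only and 3496 of 16006 with voom. It was 3958 of 16006 with GC and length trends removed and 5114 of 16006 at an FDR under 0.05. Without a filter on low values it was 1810 of 29384, and without trend or robust fitting 1946 of 16006. The cause of these shifts was not tested.

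With the replicate number as a block (replicate block), no member (0 of 10) and 651 genes were called. In this limma fit 7 of the 10 members and 5898 of all 16006 tested genes had an unadjusted p under 0.05. Same-numbered libraries did not deviate together over all tested genes (r of -0.171, -0.018 and -0.017). With so few libraries this cannot exclude a shared batch, and the labels do not say what the replicate numbers stand for. Under median-ratio scaling and scaling to total reads the median over all genes shifted by -0.01 and -0.04 log2 units. Counting error limits ALDH1L2, ALDH1A3 and ALDH6A1 most.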
